A study of Homo sapiens with 10 samples.

Results

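The comparison of Torin-1 with DMSO in QGP-1 cells is described here: RNA-seq of 2 samples treated with the mTOR inhibitor Torin-1 against 2 samples treated with the solvent DMSO, 4 of the 10 samples of the series. QGP-1 is a human cell line derived from a pancreatic neuroendocrine tumor, and all 4 samples carry its wild-type genotype. The samples were chosen by their labels alone, which give Torin-1 at 100 nM for 24 h; the text of the study gives a shorter time. The other samples are a pair treated with 1 µM apilimod, an inhibitor of the lipid kinase PIKfyve, which shares the DMSO samples, and CRISPR interference lines that were not used here. Nothing in the labels says that the 2 samples of a group came from separate cultures, so p-values measure only the spread between these samples, which may be technical. In a bulk sample, fewer cells of a kind and less RNA per cell cannot be told apart.

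mTOR is a kinase that works in a pair of complexes. mTORC1 sits on the lysosome, is switched on when amino acids are plentiful, and acts on S6 kinase, 4E-BP1, ULK1 and lipin, through which it reaches translation, autophagy and SREBP. mTORC2 acts on AKT, and active AKT keeps FOXO transcription factors out of the nucleus. Torin-1 occupies the ATP pocket of the kinase and blocks both complexes, unlike rapamycin and its relatives, which bind mTORC1 in part.

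The deposited values are gene levels on a normalized scale close to CPM, the count of a gene relative to the size of its library. From the spacing of low values, the 4 libraries held an estimated 10.4 to 12.03 M reads. The value of 3 reads, taken as the floor, is then 0.250 to 0.281 CPM (this reflects counting noise alone). The replicates of a group differed by more than counting noise, with a median chi-square of 1.89 times the Poisson expectation for DMSO and 2.67 times for Torin-1. Mitochondrial transcripts took 7.44% to 7.70% of the signal in these libraries. The neuroendocrine markers CHGA (417 and 430 CPM with DMSO, 427 and 453 CPM with Torin-1) and INSM1 (131 and 139 CPM with DMSO) were well detected. Of the markers of other cells, 3 of 15 acinar, 1 of 10 fibroblast, 1 of 8 endothelial and 1 of 11 blood genes reached the filter, and PRSS1, a trypsinogen of acinar cells, rose from 5.65 and 5.34 CPM to 11.9 and 18.0 CPM, a difference of 1.27 on the log2 scale whose part in other results was not tested and whose call was lost when low values were kept. RNAs without a poly(A) tail, mostly histone genes, summed to 72.5 and 72.3 CPM with DMSO and 103 and 93.8 CPM with Torin-1, and their part in the other results was not tested either.

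Torin-1 changed many genes by a little and few by much. Of 13520 genes whose mean reached 1 CPM, 5202 (38.5%) passed limma's moderated test on log2(CPM + 1) at an adjusted p under 0.05, 2248 higher (16.6%) and 2954 lower (21.8%) with Torin-1. Of the genes that passed, 3197 differed by less than 0.5 on the log2 scale, and only 23 higher (0.17%) and 26 lower (0.192%) differed by 1.5 or more. The median difference over all genes was -0.01, and the 5th and 95th percentiles were -0.60 and 0.64. No sample of a group overlapped the other group in 9368 genes (69.3%), far more than passed the test, so a lack of overlap says little in groups of 2. Genes called lower were the more abundant, with a median of 63.2 CPM in DMSO against 33.9 CPM for genes called higher and 21.5 CPM for genes not called. They also had shorter longest transcripts, with a median of 3216 bases against 4366 bases for genes called higher and 3703 bases for the rest. Without the filter on low values only 1765 genes passed, so this count is given beside that of a list where they differ by over 1.5 times. In addition, with quantile normalization the share of calls that were higher went from 43.2% to 48.9%.

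**Figure D1:**
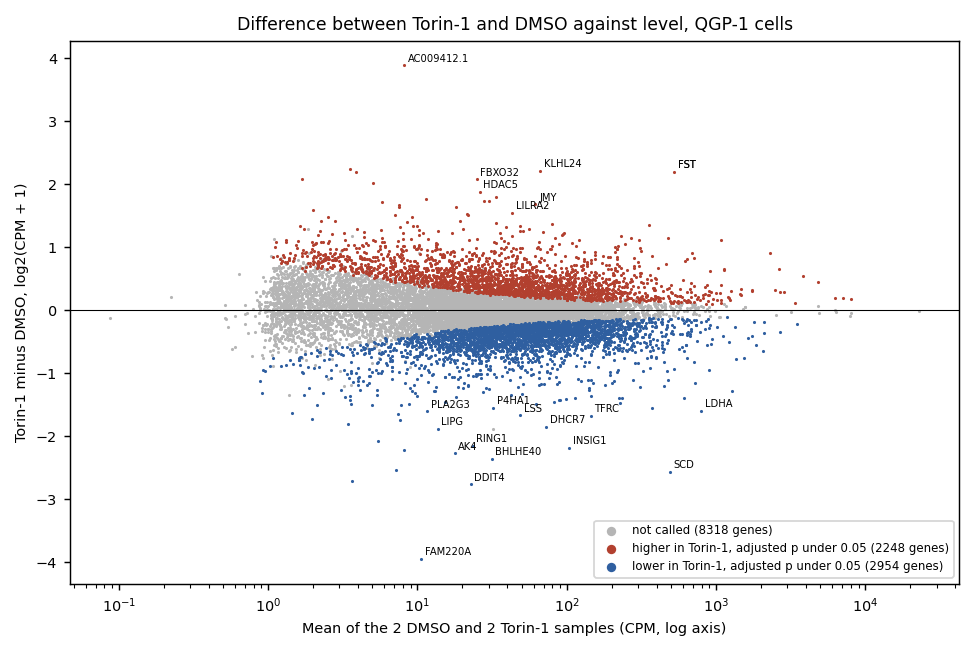
Each point is a gene, with its mean CPM over the 4 samples on a log axis and its Torin-1 minus DMSO difference in log2(CPM + 1) on the other axis; red points were called higher (2248), blue points lower (2954) and grey points were not called. Most called genes lie within 0.5 of 0, and FST and SCD stand out as abundant genes with large differences in opposite directions.

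The genes raised most had varied roles, from protein degradation and transcription to secretion and cell death. KLHL24, a kelch-domain adaptor of an E3 ubiquitin ligase (chr3:183635568-183684477, forward strand, GRCh38), had 21.7 and 23.97 CPM with DMSO and 105.5 and 114 CPM with Torin-1, a difference of 2.21 ± 0.09 (SE, n = 2 per group; adjusted p = 3.9e-10). FST, follistatin, a secreted antagonist of activins (chr5:53480409-53487134, forward strand), had 189 and 187 CPM with DMSO and 831 and 898 CPM with Torin-1, a difference of 2.19 ± 0.05 (adjusted p = 2.8e-12). In both genes the groups were far apart, and FST was the only one of the 15 genes raised most that passed 100 CPM with DMSO.

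FBXO32, the ubiquitin ligase subunit atrogin-1 that is a known FOXO target in wasting muscle, rose from 9.63 and 8.21 CPM to 42.0 and 39.6 CPM. HDAC5, a class IIa histone deacetylase, rose from 11.5 and 9.63 CPM to 43.9 and 39.3 CPM, and HBP1, a repressor of cell cycle genes, from 13.7 and 15.4 CPM to 49.3 and 56.9 CPM. CREBRF, a regulator of CREB3 factors linked to energy storage, rose from 11.7 and 12.8 CPM to 40.4 and 46.0 CPM. The differences of these genes on the log2 scale were 2.08, 1.88, 1.80 and 1.74, and no sample of the Torin-1 group came near the DMSO range. BMF, a BH3-only promoter of cell death, rose by 1.74, JMY, an actin nucleator that also acts as a p53 cofactor, by 1.68, and ABTB1 and NATD1 by 1.76 and 1.64. The remaining genes were LILRA2, a leukocyte receptor of a family of close relatives (1.54), SPSB3, a ubiquitin ligase adaptor (1.53), MN1, a transcriptional coregulator (1.51, from 13.5 and 8.54 to 36.5 and 28.8 CPM), REPS2, an endocytosis protein (1.41), and CLNK, an immune adaptor (1.38). SPSB3 shares exons with EME2 on the opposite strand, and the sum of both genes rose by 0.63. With no filter on low values MN1 was not called (the cause was not tested). The other 14 genes passed in every alternative run that they entered.

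By amount rather than ratio, the largest gains were in abundant endocrine and translation genes. SCG2, secretogranin II of the dense-core granule, gained most, from 4043 and 4084 CPM to 5468 and 5622 CPM. VGF, a neuropeptide precursor, and TPH1, the first enzyme of serotonin synthesis, followed, TPH1 with 1583 and 1591 CPM in DMSO and 2923 and 3039 CPM in Torin-1. The other genes of this group were EEF2, MT-ND1, EEF1A1, MTRNR2L12, a nuclear gene nearly identical to part of the mitochondrial ribosomal RNA, TXNIP, FST and RAP1B. TXNIP, an arrestin-like protein that limits glucose uptake, had 675 and 678 CPM with DMSO and 1435 and 1494 CPM with Torin-1, a difference of 1.11 ± 0.04 (adjusted p = 2.1e-10). The gains of EEF1A1 (0.20) and RAP1B (0.28) did not pass after quantile normalization or without the variance trend, and those of MT-ND1 and MTRNR2L12 did not pass without the trend. All 4 of these genes and SCG2 and VGF also lost their call without the filter on low values.

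Among the genes lowered most were DDIT4, SCD and other lipid genes, BHLHE40, AK4, LDHA and TFRC. DDIT4, also called REDD1, an inhibitor of mTORC1 that stress induces (chr10:72273920-72276036, forward strand), had 38.6 and 42.0 CPM with DMSO and 4.38 and 5.86 CPM with Torin-1, a difference of -2.76 ± 0.12 (adjusted p = 1.4e-09). SCD, the desaturase that makes oleate (chr10:100347124-100364834, forward strand), had 851 and 833 CPM with DMSO and 144 and 139 CPM with Torin-1, a difference of -2.56 ± 0.04 (adjusted p = 1.9e-14). BHLHE40, a repressor of the circadian clock that low oxygen induces, fell from 52.3 and 54.2 CPM to 10.1 and 9.14 CPM. AK4, a mitochondrial adenylate kinase, fell from 28.4 and 31.7 CPM to 5.78 and 5.09 CPM. Each of these 4 genes had at most 18.1% of its DMSO mean left, and the replicates of a group lay close together.

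Other lipid genes among the 15 lowered most were INSIG1, the retention factor of SREBP (-2.18), the sterol enzymes DHCR7 and LSS (-1.85 and -1.67), endothelial lipase LIPG (-1.89) and the secreted phospholipase PLA2G3 (-1.61). TFRC, the transferrin receptor, fell from 224 and 220 CPM to 67.2 and 69.7 CPM. LDHA, which turns pyruvate into lactate, fell from 1174 and 1219 CPM to 382.5 and 409 CPM, and P4HA1, a collagen prolyl hydroxylase, from 48.2 and 48.3 CPM to 14.7 and 16.99 CPM. RING1, a Polycomb ubiquitin ligase in the MHC region, had 37.1 and 34.2 CPM with DMSO but 2.19 and 20.3 CPM with Torin-1, so its difference of -2.15 came with an SE of 0.54 and did not pass without the filter or without the variance trend. It was -0.78 without the first Torin-1 sample and -3.52 without the second. FAM220A, listed lowest of all at -3.95 (18.0 and 23.5 CPM with DMSO, 0.402 and 0.393 CPM with Torin-1), moved against the separate entry AC009412.1, which rose by 3.89 to 15.8 and 16.5 CPM. The sum of those entries differed by -0.31 (18.0 and 23.9 CPM with DMSO, 16.2 and 16.9 CPM with Torin-1).

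**Figure D2:**
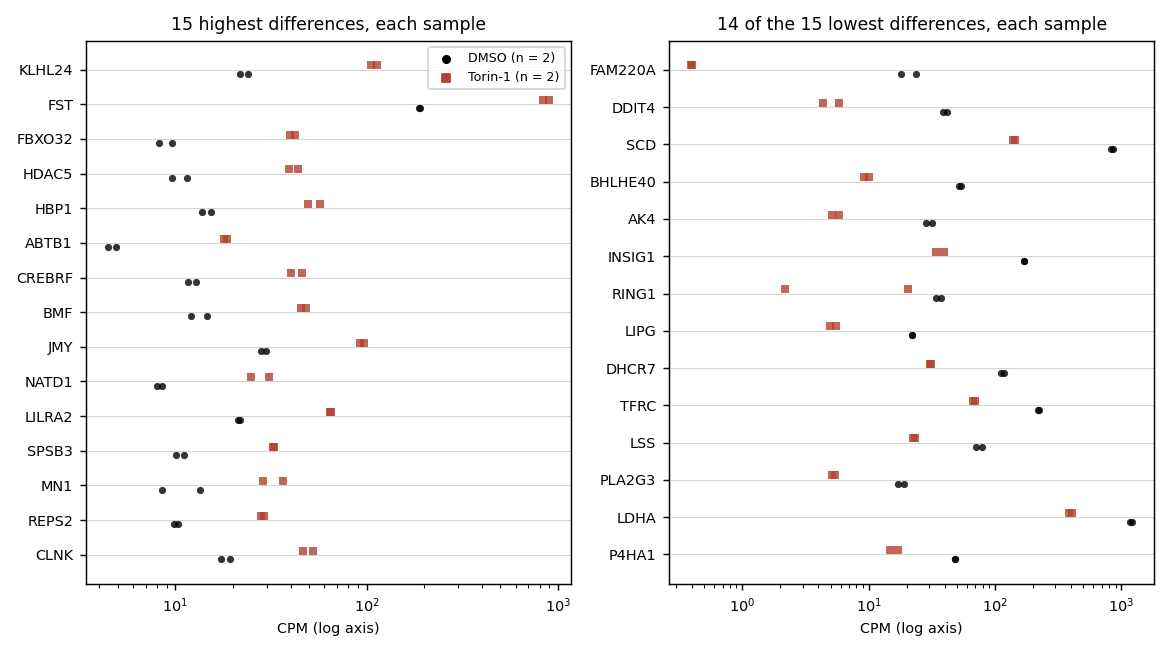
The CPM of each sample on a log axis for the 15 genes raised most and 14 of the 15 lowered most, with DMSO as black circles and Torin-1 as red squares. Only genes whose groups do not overlap could be chosen, so the gap between groups follows from the selection. RING1 is the gene whose Torin-1 samples differ most, at 2.19 and 20.3 CPM.

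Short stretches of promoters are shown for these genes because several of the lowered genes share letters. RefSeq promoters (GRCh38.p14, from 250 bases before to 50 bases after the start) were found for 12 of the 15 genes lowered most and 11 of the 15 raised most. The letters ACGTGC, which hold the core that hypoxia-inducible factors bind, were present on either strand in 7 of the 12 lowered genes (58.3%) and 2 of the 11 raised genes (18.2%), against 6.87% of all 27305 promoters and 8.82% of those of tested genes. In the glycolysis list 5 of 20 promoters (25.0%) had them, and in the mitosis list 9 of 51 (17.6%). In the other lists searched the share was at most 11.1%. The letters GTAAACA, a forkhead motif, were in 3 of 11 raised genes (27.3%) and 0 of 12 lowered genes. Their share was 3.41% of all promoters and 2.19% of those of tested genes. The letters CACGTG, an E-box, were in 3 of 11 raised genes (27.3%) and 5 of 12 lowered genes (41.7%). Their shares were 7.43% and 10.1%. CACGTGC holds both CACGTG and ACGTGC, so these matches overlap. Of the other planned motifs, TCACNCCAC, TTTGGCGC and TGATGNAA were in 0 of these raised and lowered genes. TCACGTGA was in 1 lowered gene and 0 raised genes. CCAATCAG was in 1 raised and 2 lowered genes and in 6 of 15 cholesterol genes (40%). It was also in 10 of 51 mitosis genes (19.6%) and 3 of 17 fatty acid synthesis genes (17.6%), and in at most 7.41% in the other lists searched. Its share was 4.16% of all promoters and 5.42% of those of tested genes. A match is only a run of letters and no evidence of binding. In the stretches below, given on the strand of the gene, the capitals mark the motif or its reverse complement. The lowered genes are shown first for ACGTGC, at chr10:72273787-72273816 (DDIT4, forward), chr3:4979251-4979280 (BHLHE40, forward), chr1:65147446-65147475 (AK4, forward), chr11:18394365-18394394 (LDHA, forward) and chr3:196082161-196082190 (TFRC, reverse); the raised genes follow with the forkhead letters at chr7:107168819-107168847 (HBP1, forward) and the E-box at chr5:173056211-173056240 (CREBRF, forward) and chr17:21253464-21253493 (NATD1, reverse).
DDIT4: agaacgttgcttACGTGCgcccggagtcca
BHLHE40: ggcagtggccagACGTGCctggagtcacag
AK4: gggtcgcagggaGCACGTgggccaggcagg
LDHA: tagactcccagcGCACGTggagcagtctgc
TFRC: cctcgcgagcgtACGTGCctcaggaagtga
HBP1: catcttctccaGTAAACAcaacacaaaag
CREBRF: cccctccggcgaCACGTGacaggggtgccc
NATD1: ggctgcgcgccgCACGTGacctcacagctg

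Among lists of pathway genes, glycolysis stood second to cholesterol synthesis in how far it fell. Of 22 glycolysis genes 19 fell and 0 rose, with a median of -0.90. The losses ran along the whole path, from the glucose transporter SLC2A1 (86.2 and 92.0 to 43.0 and 40.8 CPM) and the hexokinase HK2 (124 and 119 to 44.9 and 42.3 CPM) through TPI1, PGK1, PGAM1 and ENO1 (-1.15, -1.20, -1.11 and -1.39) to PKM, LDHA and the lactate exporter SLC16A3 (-0.95, -1.59 and -1.35). Isoforms differed in size: HK2 fell by 1.46 on the log2 scale whereas HK1 had -0.17 and did not pass, and ENO1 fell by 1.39 and ENO2 by 0.26. GAPDH, often used as a reference gene, fell by 0.22 (3733 and 3762 to 3183 and 3264 CPM). PFKFB3 (0.18) and PFKM (-0.10) did not pass. The calls of SLC16A3, ENO2 and GAPDH were lost without the filter, that of GAPDH also without the variance trend.

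Of 18 further targets of hypoxia-inducible factors 12 fell and 3 rose (7 and 0 without the filter), with a median of -0.55. EGLN3, an oxygen-sensing hydroxylase, fell from 13.0 and 11.6 CPM to 2.89 and 3.02 CPM, and NDRG1, PDK1, BNIP3 and VEGFA fell by 1.10, 0.83, 0.74 and 0.46. HIF1A itself fell by 0.39. The genes that rose were KDM3A (0.25), EPAS1 (0.33), which encodes HIF-2α, and the mitophagy receptor BNIP3L (0.47); none of the 3 was called when low values were kept, nor were BNIP3 and VEGFA. KDM3A also lost its call without the variance trend or the first DMSO sample.

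The list of cytosolic chaperones, which also holds the mitochondrial HSPA9, HSPD1 and HSPE1, fell almost as a whole. Of 24 genes tested 23 fell (15 without the filter) and the remaining gene was HSF1, the heat shock factor, at 0.00, for a median of -0.60. HSP90AA1, the inducible HSP90, lost more CPM than any other gene called, from 1798 and 1837 CPM to 707 and 783 CPM. Its constitutive relative HSP90AB1 fell by only 0.19, a call lost without the filter or the variance trend. HSPA8, the constitutive HSP70, fell from 1711 and 1709 CPM to 983 and 1007 CPM, and the HSP40 partners DNAJA1 and DNAJB1 fell by 1.40 and 1.07. All 8 subunits of the chaperonin CCT, which folds actin and tubulin, fell, by between 0.23 and 0.66. In the same samples 8 of 9 tubulin genes fell, TUBA1A by 1.10 (662 and 649 to 304 and 305 CPM), and 1 rose (TUBB2B, 0.14, a call lost without the filter, the variance trend, either DMSO sample or the first Torin-1 sample). ACTB fell by 0.64, from 2533 and 2456 CPM to 1625 and 1574 CPM.

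**Figure D3:**
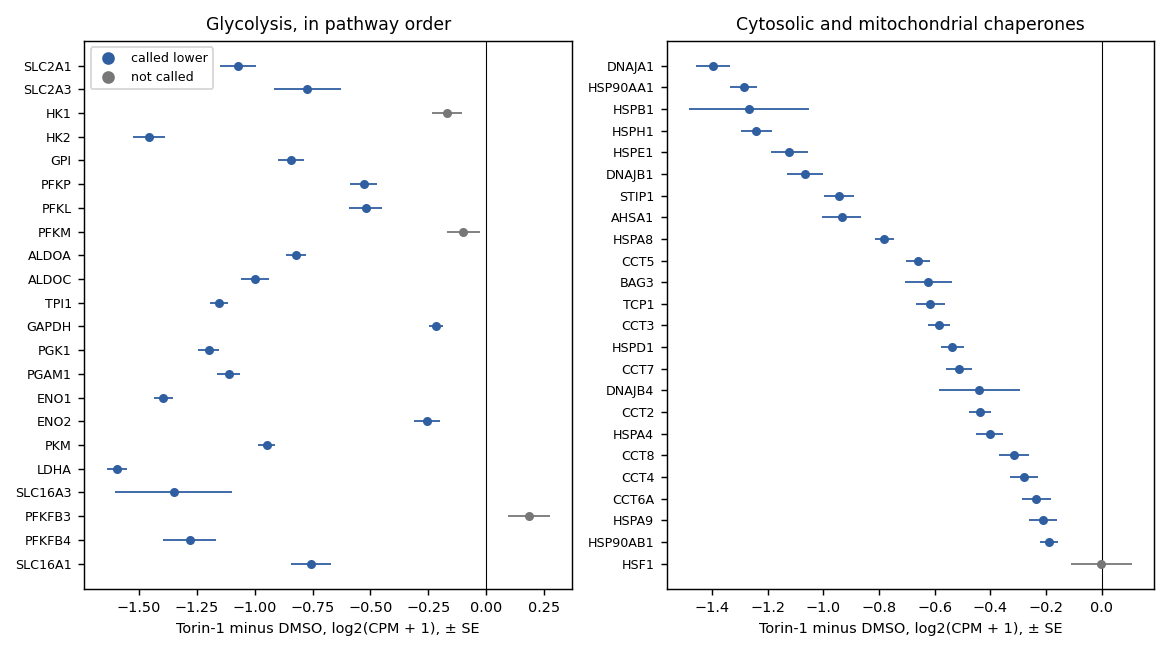
Torin-1 minus DMSO differences in log2(CPM + 1) with standard errors for the 22 glycolysis genes in pathway order, from glucose uptake down with regulators and lactate transport last, and for 24 chaperones ordered by difference; blue points were called lower and grey points were not called. LDHA (-1.59) and DNAJA1 (-1.40) are the lowest in their panels, and HK1, PFKM, PFKFB3 and HSF1 were not called.

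A heat shock element, in which TTC and GAA alternate, searched after these values were seen, was in the promoters of 2 of 22 chaperone genes (9.09%) against 0.487% of all promoters. The stretch of HSPA8 at chr11:123062171-123062199 (reverse strand) is shown with the element in capitals.
HSPA8: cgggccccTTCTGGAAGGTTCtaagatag

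The proteasome fell with the chaperones. Of 43 genes 33 fell and 2 rose (17 and 1 without the filter), with a median of -0.36: 12 of 14 subunits of the 20S core, 16 of 21 of the 19S cap, the assembly factor POMP (-0.70, not without the filter) and the activator PSME3 (-0.76). PSMG2, an assembly chaperone (0.63), and PSMD4 (0.15) rose. PSMG2 lost its call without the filter and PSMD4 without the variance trend, either DMSO sample or the first Torin-1 sample. PSMG2 with SPIRE1 on the opposite strand had a sum that differed by 0.30. In contrast, chaperones and quality-control genes of the endoplasmic reticulum leaned upward, with a median of 0.11. Of these 36 genes 16 were higher (44.4%) and 5 lower (13.9%), against 16.6% and 21.8% of all genes. Without the filter 10 were higher and 1 lower, without the variance trend 12 and 2, and without either DMSO sample or the first Torin-1 sample 2 or 3 were lower. ERN1, the sensor IRE1α, rose from 171 and 162 CPM to 371 and 366 CPM. The co-chaperone DNAJB9 rose from 57.1 and 55.7 CPM to 122 and 138 CPM, and SYVN1, the ligase of ER-associated degradation, from 43.5 and 41.8 CPM to 87.5 and 84.6 CPM. HSPA5, the main chaperone of the compartment, rose by only 0.15, and CALR and SDF2L1 fell by 0.30 and 0.64. The calls of HSPA5 and SDF2L1 were lost without the filter, the variance trend or the first DMSO sample, that of HSPA5 also without the second DMSO sample and that of SDF2L1 without the first Torin-1 sample. SDF2L1 had -0.40 without the first DMSO sample and -0.41 without the first Torin-1 sample. DERL3 rose by 1.25 from a low level (0.724 and 1.04 to 4.38 and 2.72 CPM) and did not pass without the filter. DERL3 and DNAJB9 share exons with SMARCB1 and PNPLA8 on the opposite strand, and the sums of these pairs differed by 0.69 and 0.86.

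The machinery of translation split by part. Of 79 cytosolic ribosomal protein genes 34 were higher and 5 lower, all by small amounts: the median was 0.11 and the highest, RPL4, 0.30 (1134 and 1122 to 1373 and 1412 CPM). These counts depended on the fit. They were 4 higher and 4 lower without the variance trend, 6 and 3 without the filter on low values and 50 and 6 with quantile normalization. With 1 sample left out the median lay between 0.08 and 0.13. RPS26 was the main exception and fell by 0.66 (233 and 237 to 142 and 156 CPM). Of 54 translation factors 19 rose and 23 fell. EIF4B, a helper of the helicase eIF4A, rose from 521 and 511 CPM to 894 and 934 CPM, EIF3A from 465 and 453 CPM to 788 and 831 CPM, EIF1 from 462 and 456 CPM to 766 and 812 CPM, and EEF2 from 2059 and 2036 CPM to 3272 and 3190 CPM. Of 13 subunits of eIF3, 7 rose (A, C, D, E, F, H and L) and EIF3B and EIF3I fell, EIF3I by 0.21, a call lost without the filter, the variance trend, either DMSO sample or the second Torin-1 sample, or with quantile normalization. Of 9 eIF4 factors 6 fell, the scaffold EIF4G1 by 0.60, and EIF5A fell by 0.83 and EIF4EBP1, which encodes the mTORC1 substrate 4E-BP1, by 0.69. Without the variance trend 12 factors rose and 17 fell, and without the filter 9 rose and 9 fell.

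Genes that build ribosomes fell, whereas the ribosomal proteins had a median of only 0.11 and calls that depended on the fit. Of 87 ribosome biogenesis genes 56 fell and 5 rose (32 and 2 without the filter, 52 and 8 with quantile normalization), with a median of -0.34. The RNA polymerase III subunits POLR3G and POLR3K fell by 1.06 and 1.01, and the RNA methyltransferase NOP2 from 109 and 88.9 CPM to 52.7 and 45.8 CPM. NOB1, the endonuclease that finishes the small-subunit RNA, rose from 51.0 and 49.9 CPM to 100.3 and 92.9 CPM, and MYC, a driver of this program, rose by 0.57 (82.1 and 80.0 to 120 and 122 CPM). Mitochondrial ribosomal proteins fell too (38 of 75, with 4 higher, median -0.25; 14 and 3 without the filter, and 2 higher without the variance trend, the first DMSO sample or the second Torin-1 sample), as did aminoacyl-tRNA synthetases (15 of 23, with 2 higher, median -0.30, and 9 and 0 without the filter). POLR3G and NOP2 did not pass without the filter, and POLR3G with MBLAC2, which shares exons with it on the opposite strand, had a sum that differed by -0.44.

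Nuclear genes of oxidative phosphorylation fell while those in mitochondrial DNA stayed near 0. Of 77 nuclear genes 60 fell and 0 rose, with a median of -0.32, and by complex the counts were 27 of 38 for complex I, 2 of 4 for complex II, 7 of 9 for complex III, 9 of 10 for complex IV and 14 of 15 for ATP synthase. CYCS, cytochrome c, fell from 494 and 492 CPM to 274 and 317 CPM, and NDUFB3 from 86.0 and 84.9 CPM to 48.9 and 53.7 CPM. Of the 13 genes in mitochondrial DNA 12 did not pass, with a median of -0.01, and MT-ND1 rose by 0.18, a call lost without the filter or the variance trend. With quantile normalization 2 of the 13 rose and 4 fell. Without the filter on low values 20 of the nuclear genes fell.

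Amino acid genes did not follow a single direction. Of 29 genes of the ATF4 program 15 fell and 5 rose (median -0.27), with 8 and 2 without the filter and 12 and 3 without the second DMSO sample. The 3 enzymes of serine synthesis all fell, PHGDH by 0.88, PSAT1 by 0.89 and PSPH by 0.47 (not without the filter), and STC2, a secreted glycoprotein that stress induces, from 24.1 and 27.6 CPM to 12.02 and 11.2 CPM. ATF4 itself rose by 0.42 and PPP1R15A, the stress-induced phosphatase subunit GADD34, by 0.83, the latter not without the filter. Among 21 amino acid transporters 6 fell (28.6%) and 4 rose (19.05%), near the 21.8% and 16.6% of all genes, and 2 and 1 did without the filter. SLC7A5, the leucine carrier LAT1, fell from 260 and 240 CPM to 115 and 103 CPM and its partner SLC3A2 by 0.45, whereas the glutamine carrier SLC38A2 rose from 699 and 734 CPM to 1033 and 1167 CPM and the cystine carrier SLC7A11 by 0.50, both calls lost without the filter. Of 33 genes of nucleotide synthesis and the pentose phosphate pathway 19 fell (11 without the filter) and 0 rose, NME1 by 1.12 and PAICS by 0.63.

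In the list of genes for the antioxidant factor NRF2 and for glutathione, 24 of 33 fell and 2 rose, with a median of -0.46. Without the filter 13 fell and 0 rose, and with quantile normalization 24 fell and 4 rose. PRDX1, a peroxiredoxin, fell from 435 and 429 CPM to 178 and 190 CPM, AKR1C2, an aldo-keto reductase, from 277 and 274 CPM to 119 and 128 CPM, and thioredoxin TXN by 0.79 (not without the filter). GPX4, the glutathione peroxidase that guards against lipid peroxides, had -0.04 and did not pass. GCLC rose by 0.20, a call lost without the filter or the variance trend. With each sample left out in turn, its difference lay between 0.16 and 0.24. AKR1C1, AKR1C2 and AKR1C3 are near-identical copies that can share reads. Among iron genes, beside TFRC, FTH1 fell by 0.27 (1108 and 1122 to 931 and 914 CPM), and FTL, IREB2 and the exporter SLC40A1 did not pass (0.09, 0.09 and 0.05). NCOA4, the ferritin receptor of autophagy, rose by 0.25 (136 and 153 to 162 and 184 CPM), a call that did not hold without the first DMSO sample or the second Torin-1 sample or without the filter or the variance trend; with each sample left out in turn, the difference lay between 0.16 and 0.35.

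The lipid genes are given in brief. All 20 cholesterol synthesis genes fell, with a median of -1.10, and 13 of 18 fatty acid synthesis genes fell and ELOVL5 rose (0.35, not without the filter). FASN fell from 361 and 314 CPM to 124 and 117 CPM, HMGCS1 from 194 and 208 CPM to 78.9 and 86.2 CPM and FADS2 by 1.40. ACACA, acetyl-CoA carboxylase, fell by 0.39 (30.6 and 28.0 to 21.1 and 23.1 CPM), a call that was lost without the filter, the first DMSO sample or the first Torin-1 sample. SREBF1, a regulator of lipid synthesis genes, fell from 88.7 and 99.0 CPM to 46.0 and 36.8 CPM, a difference of -1.17 ± 0.10 (adjusted p = 7.1e-07). SREBF2, which encodes the other SREBP, fell by 0.42. SREBF1 shares exons with RAI1 on the opposite strand, and the sum of both fell by 0.44; no source used here says whether counting used strand. Genes of fatty acid oxidation and peroxisomes had a median of -0.01. Of 47 genes 12 were lower (25.5%) and 4 higher (8.51%), against 21.8% and 16.6% of all genes. Without the filter 4 were lower and 0 higher, and 7 were lower without the variance trend, either DMSO sample or the first Torin-1 sample.

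The cell cycle genes fell moderately. Of 60 mitotic genes 46 fell and 3 rose (21 and 0 without the filter), with a median of -0.31. CDC20, the activator of the anaphase-promoting complex, fell from 209 and 213 CPM to 114 and 110 CPM and cyclin CCNB1 from 389 and 386 CPM to 210 and 223 CPM. Of 53 replication and G1/S genes 23 fell and 7 rose (median -0.18; 11 and 4 without the filter), CCND1, cyclin D1, by 0.53 and MCM6 of the replicative helicase by 0.60. CDT1, which licenses replication origins, went against its list and rose from 46.4 and 41.7 CPM to 120 and 111 CPM, a difference of 1.37 ± 0.09 (adjusted p = 5.3e-08). Of 30 cell cycle inhibitors and p53 targets 13 rose (43.3%) and 8 fell (26.7%), against 16.6% and 21.8% of all genes. Without the filter 5 rose and 2 fell, and fewer fell without either DMSO sample. CCNG2, a cyclin that halts the cycle, rose from 42.6 and 41.1 CPM to 87.2 and 91.4 CPM and CDKN1B, which encodes p27, from 34.9 and 38.1 CPM to 56.3 and 60.6 CPM (a call lost without the filter), whereas SESN3, a stress sensor, fell from 33.3 and 30.5 CPM to 13.9 and 16.2 CPM. CDKN1A, which encodes p21, was low (5.61 and 6.55 to 4.01 and 2.85 CPM) and its fall of 0.69 did not pass without the filter or without the second sample of either group.

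Several receptors and effectors of insulin signalling were higher with Torin-1, and the share that was lower was near that of all genes. Of 36 genes of insulin, IGF and FOXO feedback 14 rose (38.9%) and 7 fell (19.4%), against 16.6% and 21.8% of all genes. The list had a median of 0.14. Without the filter 9 rose and 1 fell, 4 fell without the variance trend or the first DMSO sample, and 3 fell without the second sample of either group. IRS2, the docking protein of the insulin receptor, rose from 75.7 and 75.8 CPM to 148 and 162 CPM, IGF1R from 115 and 102 CPM to 187 and 179 CPM and ERBB2 by 0.86 (not without the filter). FOXO1 rose from 8.15 and 8.79 CPM to 17.6 and 19.6 CPM and FOXO3 by 0.68. PDK4, the kinase that closes pyruvate dehydrogenase and a textbook FOXO target, rose from 190 and 192 CPM to 398 and 436 CPM. FGFR4, a fibroblast growth factor receptor, fell by 1.32 from a low level (4.53 and 3.07 to 0.932 and 0.862 CPM) and did not pass without the filter. PIK3R3 fell by 0.74 and GRB10 by 0.57, the latter not without the filter. Of 39 genes of the mTOR complexes and their regulators 11 fell (28.2%) and 4 rose (10.3%), near the 21.8% and 16.6% of all genes. Without the filter 3 fell and 1 rose, 5 and 7 fell without the first and the second DMSO sample, and 7 fell with quantile normalization. MTOR had -0.08 (97.8 and 103 to 103 and 88.0 CPM, adjusted p = 0.49) and RICTOR of mTORC2 and TSC2, an inhibitor of mTORC1, rose by 0.48 and 0.43, neither of them without the filter.

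Autophagy genes leaned upward, with a median of 0.18. Of 48 genes 21 were higher (43.8%) and 4 lower (8.33%), against 16.6% and 21.8% of all genes. Without the filter 11 were higher and 2 lower, and 2 were lower without either DMSO sample or the first Torin-1 sample. Of the 5 genes of the initiating ULK complex 4 rose, ULK1 from 32.8 and 32.7 CPM to 63.8 and 56.8 CPM. Of 10 cargo receptors 8 rose and FUNDC1 fell by 0.40, a call lost without the filter. Both groups were picked after values were seen, and the receptor group leaves out BNIP3 and BNIP3L. NBR1 rose from 142 and 153 CPM to 292 and 288 CPM and RETREG1, which targets the endoplasmic reticulum, by 0.82 (not without the filter). SQSTM1, which encodes p62, rose by 0.30 (241 and 235 to 295 and 290 CPM). Lysosomal genes were mixed: 16 of 63 were higher (25.4%) and 9 lower (14.3%), with a median of 0.04, against 16.6% and 21.8% of all genes. Without the filter 5 were higher and 4 lower, and without the second DMSO sample 10 were higher. Of 19 subunits of the lysosomal proton pump 6 fell (31.6%) and 1 rose (5.26%), against 21.8% and 16.6% of all genes. Without the filter 2 fell and 0 rose, and without the variance trend 3 and 0. PIKFYVE had 0.12 (72.0 and 69.9 to 77.6 and 76.6 CPM, adjusted p = 0.19) and did not pass.

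Genes of the secretory granule and of endocrine lineage were called higher more often than genes in general. Of 36 neuroendocrine secretory genes 15 rose (41.7%) and 9 fell (25.0%), against 16.6% and 21.8% of all genes. Their median was 0.10, and without the filter 7 rose and 1 fell. Among those that rose were the monoamine transporter SLC18A1 (9.01 and 8.54 to 19.1 and 17.4 CPM), the fusion protein SNAP25 (161 and 155 to 273 and 283 CPM) and the prohormone convertase PCSK1 (861 and 895 to 1327 and 1404 CPM). CHGA had 0.05 and did not pass, and SYP, synaptophysin, fell by 0.25 and the vesicle GTPases RAB3A and RAB3D by 0.51 and 0.58, all 3 calls lost without the filter. Of 27 lineage factors 11 rose (40.7%) and 4 fell (14.8%), with a median of 0.21. Without the filter 5 rose and 3 fell, and without the variance trend 7 and 3. INSM1 rose from 131 and 139 CPM to 237 and 249 CPM and ST18 from 144 and 145 CPM to 267 and 284 CPM. In contrast, HES6 fell from 43.5 and 35.5 CPM to 18.5 and 19.6 CPM and ISL1 from 22.5 and 22.5 CPM to 13.8 and 15.3 CPM. Of 36 epithelial junction and keratin genes 19 fell and 5 rose (8 and 2 without the filter, and 3 rose without the variance trend or the first DMSO sample), and the plakophilin PKP3 fell by 1.04 (not without the filter) and cingulin CGN by 0.95.

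Immediate early and cilium genes were called higher more often than lower, and the clock, chromatin, splicing and interferon lists were mixed or lower. Of 35 immediate early genes, which respond to growth signals within minutes, 15 rose (42.9%) and 3 fell (8.57%), with a median of 0.21. Without the filter 11 rose and 0 fell, and without the variance trend 13 rose and 1 fell. NR4A2 rose from 73.3 and 77.4 CPM to 173 and 158 CPM and EGR1 from 18.0 and 16.3 CPM to 32.8 and 31.3 CPM. The feedback inhibitor SPRY4 rose by 0.85, whereas JUN fell by 0.51 (not without the filter). Of 50 cilium genes 16 rose (32%) and 2 fell (4%), with a median of 0.15, and 6 and 0 did without the filter. Of 21 circadian clock genes 5 rose (23.8%) and 4 fell (19.05%), near the 16.6% and 21.8% of all genes, with a median of 0.04, and 2 fell without the filter. NR1D1 and NR1D2, the repressors REV-ERBα and REV-ERBβ, rose by 1.08 and 0.72, and BHLHE40 and NFIL3 fell, NFIL3 not without the filter. NR1D1 shares exons with THRA on the opposite strand, and the sum rose by 0.60. Of 73 chromatin modifiers 18 rose (24.7%) and 11 fell (15.1%), with a median of 0.03, near the shares of all genes. The counts were 5 and 3 without the filter, 6 and 8 without the variance trend, 8 and 9 without the second DMSO sample and 10 and 12 without the first Torin-1 sample. KDM7A, a histone demethylase, rose from 21.6 and 25.7 CPM to 50.3 and 53.5 CPM. Spliceosome genes fell in 26 of 51 cases and rose in 5, with a median of -0.26. Without the filter 10 fell and 0 rose, 1 rose without the variance trend, 2 rose without either DMSO sample or the first Torin-1 sample, and 8 rose with quantile normalization. Of 37 interferon and antigen presentation genes 10 fell (27.0%, near the 21.8% of all genes) and 2 rose, with 1 and 0 without the filter and 6 and 2 without the second DMSO sample.

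**Figure D4:**
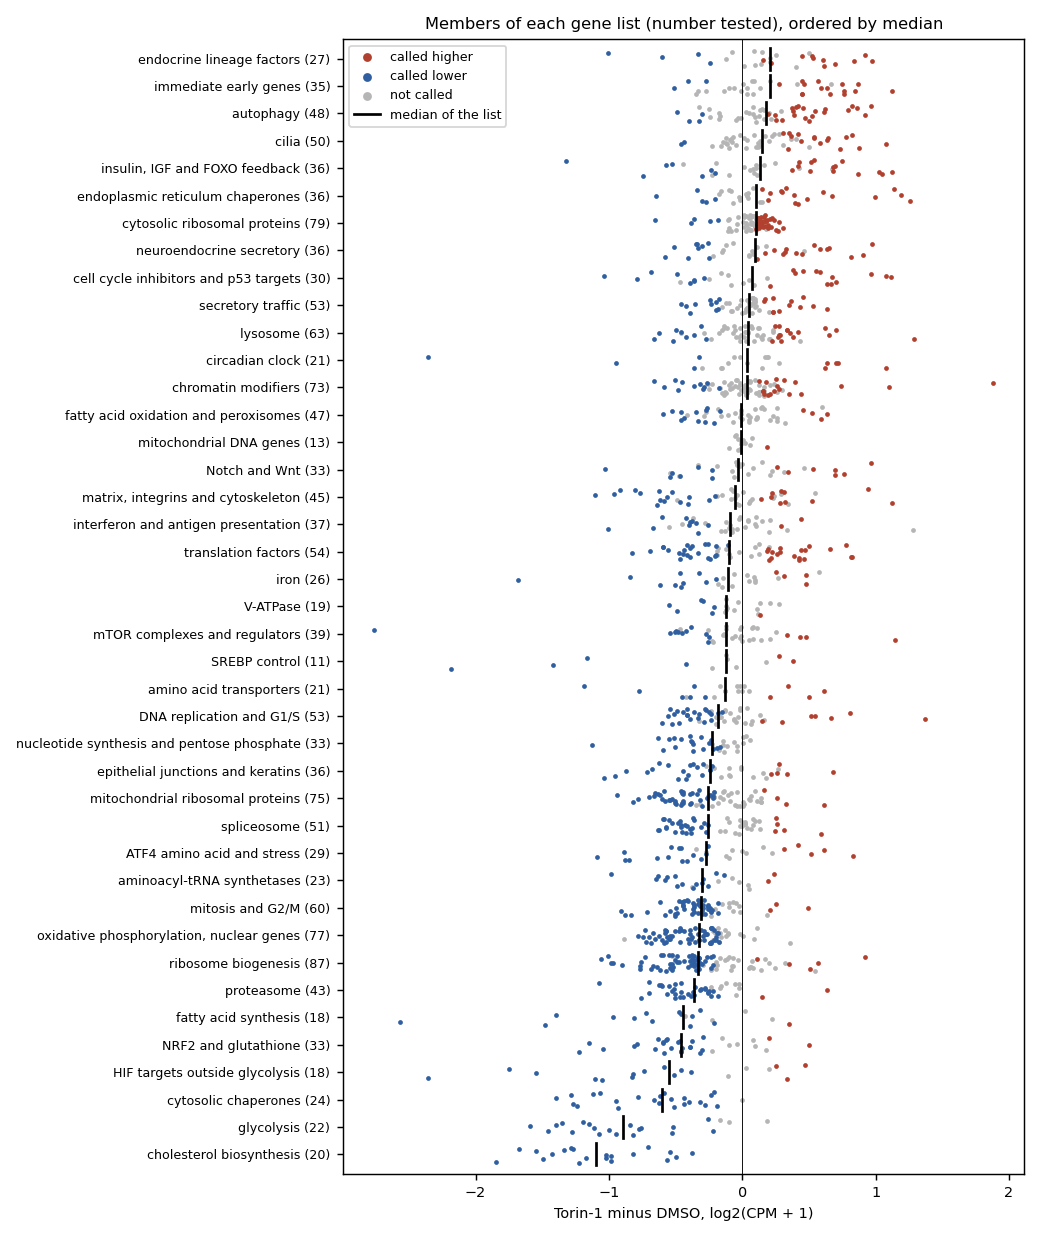
Each point is a member of a list with its Torin-1 minus DMSO difference in log2(CPM + 1); lists with at least 10 tested genes are ordered by their median, drawn as a bar, and red, blue and grey points were called higher, lower or not called. Cholesterol synthesis (-1.10), glycolysis (-0.90) and the chaperones (-0.60) have the lowest medians, and lineage factors (0.21) and immediate early genes (0.21) the highest.

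Apilimod was measured against the same DMSO samples. With it the lowered lipid genes and some other genes had values of opposite sign, whereas the glycolysis, chaperone and oxidative phosphorylation lists had medians near 0. Apilimod against DMSO called 8.54% of genes and Torin-1 against apilimod, which tests the difference of the drugs, 46.7%. SCD had -2.56 with Torin-1 and 2.11 with apilimod, and DDIT4 had -2.76 and 1.06, with adjusted p of 5.15e-18 and 9.8e-12 for the difference between the drugs. BHLHE40 had -2.36 and 1.20, and MN1, which Torin-1 raised, had 1.51 and -1.01. The cholesterol list had medians of -1.10 and 1.96. For glycolysis the medians were -0.90 and 0.03, for the chaperones -0.60 and -0.04 and for nuclear oxidative phosphorylation genes -0.32 and 0.03. LDHA had -1.59 and -0.17 (adjusted p = 8.8e-12 for the difference) and HSP90AA1 -1.29 and -0.15 (3.2e-10). Among the raised genes FST had 2.19 and -0.22 and TXNIP 1.11 and -1.08 (7.7e-14 and 2.0e-14), and KLHL24 was higher with both drugs, at 2.21 and 0.91 (3.2e-08). PRSS1 had 1.27 and 1.21, with an adjusted p of 0.82 for the difference.

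**Figure D5:**
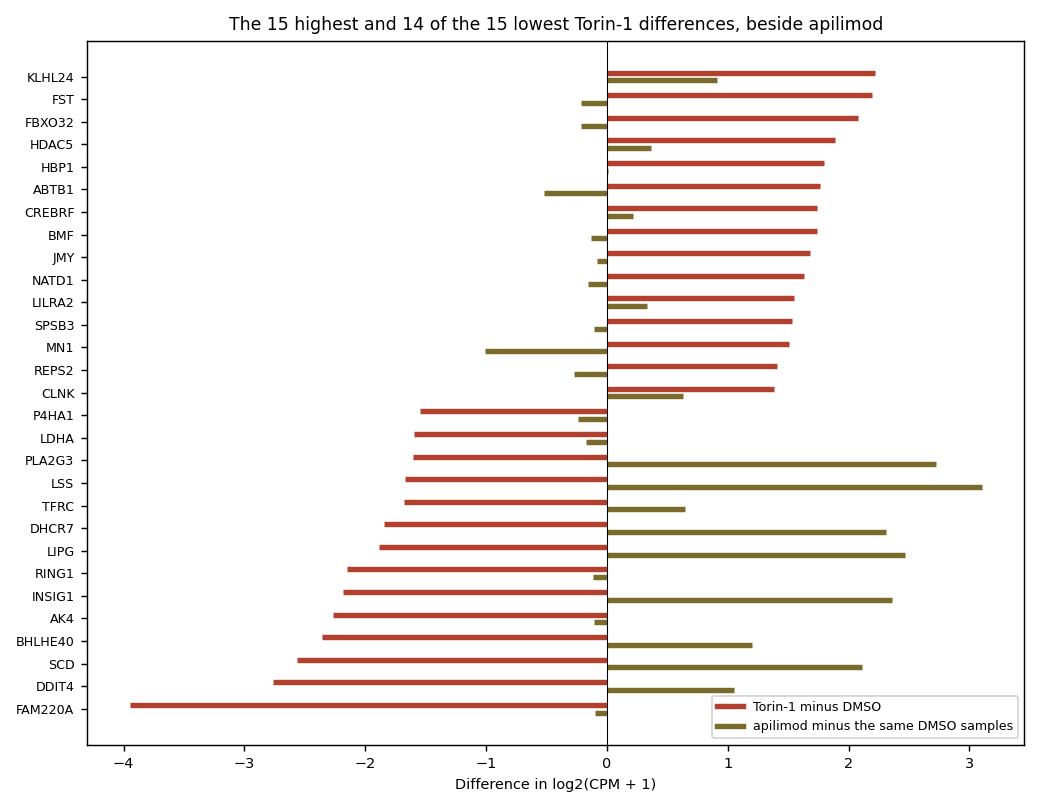
Differences in log2(CPM + 1) for the 15 genes raised most and 14 of the 15 lowered most by Torin-1 (red) and for the same genes with apilimod (brown), each against the same 2 DMSO samples. SCD, INSIG1, LIPG, DHCR7, LSS and PLA2G3 point in opposite directions, as do DDIT4, BHLHE40 and MN1, which are not lipid genes. AK4, LDHA, P4HA1, HBP1 and JMY have apilimod bars near 0.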

How the data were processed

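RNA-seq was measured in QGP-1 cells treated with DMSO, Torin-1 or apilimod, 2 samples each. The authors used Trimmomatic on the reads; the deposited gene values carry TMM scaling and derive from estimates per transcript. The submitters' notes give the genome build as hg38, and the quantifier, annotation and use of strand are not given in the sources used here. The study's methods name oligo(dT) selection of mRNA, and the labels name removal of ribosomal RNA. The deposited table holds a normalized signal on a CPM scale, not the plain CPM that the planned design assumed; the planned test on a log scale was kept. Its columns sum to between 972493 and 1024332. Of the values under 1 CPM, 76.0% to 78.2% were whole numbers of reads within a tolerance of 0.05 reads; since the remainder were not, read counts could not be recovered and a count test was left out. The knockdown table, normalized on its own, was not used.

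Genes whose mean over the 6 samples reached 1 CPM entered limma 3.58.1 (R 4.3.3; lmFit, then eBayes with a variance trend) as log2(CPM + 1), all 6 samples in the fit, two-sided, with Benjamini-Hochberg adjustment over the 13520 genes and a threshold of 0.05. Adding 1 shrinks the differences of low genes. Differences are Torin-1 minus DMSO on that scale with the standard error (SE) of the fit. The procedure was also run on simulated data with log2 changes of 0.5, 1 and 2 in a small part of the genes. That setting differs from these data, where 38.5% of genes were called, so it cannot show how the procedure performs here.

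Named genes are a set of genes the study follows, the 15 highest and 15 lowest differences among called genes without overlap and with a 4-sample mean of 10 CPM or more, the 10 largest gains and losses in CPM, and up to 3 genes each way from each of 46 gene lists; other list members serve as examples. Lists are described by counts and medians. A few named genes are not reported here. The members and lists were chosen with earlier results of these data known, and the subunit groups, the heat shock element and a further NRF2-type motif, TGACNNNGC, were chosen after values were seen. The TGACNNNGC letters were in 13.6% of all promoters and 14.8% of those of tested genes. Their share was 25.9% in the NRF2 list, 29.7% in the proteasome list, 20% in the glycolysis list and at most 18.2% in the others. They were thus not particular to the NRF2 list. TGATGNAA was in 3.67% of all promoters.

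Of 35606 listed gene IDs 35547 were in GENCODE release 29, which gave positions on GRCh38, and 27 symbols that had become dates were restored from it. Promoters came from RefSeq (GRCh38.p14) and were matched by symbol. Alternatives were a pseudocount of 0.1, no filter, a minimum mean of 10 CPM, quantile normalization, no variance trend, a fit of only the 4 samples compared, the replicate number as a block, and each of these samples left out. Plots used matplotlib 3.10.9 (Python 3.11.15).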

Additional observations from a re-analysis of the deposited data

How the results depend on the processing

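The number of genes past the threshold was 5202 (2248 higher, 2954 lower). Without the filter on low values it was 1765 (715 higher, 1050 lower), and with 1 sample left out it lay between 3583 and 4342 (1496 to 1759 higher, 2076 to 2583 lower), with the fewest higher genes without the second DMSO sample; the left-out fits have fewer samples and assume that the lone sample of a group varies like the other groups, and the cause of the first was not tested. Past a log2 difference of 1.5 the count was 49 (23 higher, 26 lower); it was 112 (60 and 52) with a pseudocount of 0.1, 30 (15 and 15) without the filter and 27 (12 and 15) when the mean had to reach 10 CPM, and with 1 sample left out between 55 and 64 (25 to 29 higher, 27 to 35 lower). With the replicate number as a block 5903 genes passed. The deviations of same-numbered samples from their group means correlated at 0.05 between DMSO and Torin-1, 0.04 between DMSO and apilimod and 0.10 between Torin-1 and apilimod, so the replicate numbers were not shown to pair the samples and no pairing was used. Of the 260 named genes 255 were called, and none of these changed sign in the alternatives run; MTOR and SLC40A1, which were not called, did with 1 sample left out (-0.19 to 0.04 and -0.11 to 0.21), and SLC40A1 also with quantile normalization (-0.07). Of the called genes 98 lost their call without the filter and 28 without the variance trend. The depth of about 11 M reads and groups of 2 limit the precision of low genes, whose values near 3 reads cannot show a difference.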

Other observations

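Some genes outside the lists of the report moved as families; they were picked after their values were seen, so their counts are a description. Of the 5 genes of the YPEL family, small zinc-binding proteins, 4 were called higher with Torin-1: YPEL4 (1.45 and 1.33 CPM with DMSO, 9.41 and 7.93 CPM with Torin-1), YPEL1 (8.15 and 7.23 CPM, then 22.1 and 17.5 CPM), YPEL5 (31.2 and 33.9 CPM, then 62.7 and 68.0 CPM) and YPEL3 (14.9 and 17.9 CPM, then 28.97 and 30.2 CPM). Of the 5 metallothionein genes that reached the filter 4 were called lower, with a median difference over the 5 of -0.70. YPEL4 lost its call without the filter on low values. With apilimod the YPEL4, YPEL1, YPEL5 and YPEL3 differences from the same DMSO samples were 0.12, -0.55, -0.13 and -0.11.

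Among abundant genes just outside the 15 raised most, CDCA7L, a MYC partner, had 209 and 190 CPM with DMSO and 501 and 517 CPM with Torin-1, a difference of 1.35. NOX4, an NADPH oxidase that makes hydrogen peroxide, had 28.5 and 25.5 CPM with DMSO and 67.7 and 71.5 CPM with Torin-1, and SMOC1, a matrix protein that binds calcium, 21.5 and 22.8 CPM and then 55.7 and 57.8 CPM. The integrins were called higher in 5 of 10 cases, among them ITGB5 at 0.95 (not without the filter), and lower in 0.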
